A study of Rattus norvegicus with 325 samples.

Results

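The diaphragm, the muscle that draws breath throughout life, was compared with the gastrocnemius, a calf muscle that is used in bursts, in young adult rats. The libraries whose labels give diaphragm and 6 months, 12 of them, were set against those that give gastrocnemius and 6 months, 10 of them. These 22 are part of 325 rat libraries in the series. All came from male Sprague Dawley rats, an outbred strain, for which the labels name no treatment and no altered allele, and each library measures total RNA of a muscle after ribosomal RNA removal. The study followed ageing in several muscles, and 6 months was the age of its youngest rats. The same muscles at 9 months (11 diaphragm and 12 gastrocnemius libraries) gave a second comparison in other libraries, and the tibialis anterior, a muscle of the shin (12 libraries at 6 months), gave a second limb muscle. Levels in the soleus, a slow postural muscle (12 libraries at 6 months), are given for orientation. According to the study's methods each library of a muscle came from its own animal, but the labels do not say which libraries of different muscles share an animal, nor which region of a muscle was taken. In whole muscle, fewer cells of a kind and less RNA per cell cannot be told apart.

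Skeletal muscle fibres are built from one of several myosin heavy chains, which set how fast a fibre contracts. Slow fibres and the fast fibres with type IIA myosin burn fat and sugar in their mitochondria and resist fatigue, whereas fibres with type IIB myosin rely on glycogen and glycolysis. The diaphragm forms in the embryo from muscle precursors that leave the neck region and from a connective tissue fold, and its faces are covered by mesothelium, the thin epithelium that lines the body cavities. Hind limb muscle forms from precursors of the lumbar region in a limb bud that carries its own set of Hox genes, the factors that record position along the body axis.

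Libraries held 19.4 to 63.0 M counts in the diaphragm (median 27.0 M, where M is 1000000) and 26.1 to 85.3 M in the gastrocnemius (median 35.5 M). The gastrocnemius libraries have running numbers of their own in the labels, and whatever that series stands for cannot be told apart from the muscle. Ribosomal RNA genes took 0.185 to 0.267% of the counts in the diaphragm, 0.437 to 5.31% in the gastrocnemius and 0.217 to 0.405% in the tibialis anterior. Diaphragm replicate 0 resembled the other diaphragm libraries less (median correlation across genes 0.975) than they resembled each other (at least 0.988), and gastrocnemius replicate 4 stood furthest from its group (0.954). Values without these libraries are given where they matter. As a check of the tissue, fast contractile genes of skeletal muscle had a summed level from 47131 to 71829 CPM (median 57314) in the diaphragm and 161331 to 191311 CPM (median 168473) in the gastrocnemius.

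Of 11465 genes tested at 6 months, 4336 (37.8%) were called, that is, differed by more than 1.5-fold with a limma-voom adjusted p under 0.05. Of all genes tested 20.8% (2389) were higher in the diaphragm and 17.0% (1947) were lower, 459 genes differed by more than 4-fold, and the median difference of all genes was 0.04 on the log2 scale. With scaling to total counts that median moved to 0.47 and the higher share of the calls from 55.1% to 85.3%, with more of the gastrocnemius counts in a few genes: the 10 most abundant 26.5 to 32.6% against 16.3 to 18.9% in the diaphragm. Of the genes named in what follows, Myh1, Casq1, Etfb, Esrra, Myod1, Myog, Spry1, Hoxc4, Hoxc5 and Scn4a were called lower and lost that call with total-count scaling. Cpt1b and Arntl, also named below, were not called but were called higher with that scaling (0.67 and 0.87). For 36.3% of the genes tested (4159) the libraries of both muscles did not overlap at all. Counts of called genes in the lists that follow should be read against these shares. Genes with few counts in both muscles were not tested, so a member that only 1 muscle expresses enters the test through that muscle. All differences are diaphragm minus the other muscle on the log2 scale, and CPM is the count per 1000000 counts of a library after scaling.

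The contractile genes of fast fibres were lower in the diaphragm, and type IIB myosin had the largest difference among them. Of 13 fast contractile genes tested 12 were lower and 1 was higher, with a median difference of -1.98, and none of the 13 overlapped between the muscles. Myh4, which encodes the type IIB myosin heavy chain, ran from 249 to 7484 CPM (median 1144) in the diaphragm and 43189 to 66548 CPM (median 51175) in the gastrocnemius, a difference of -5.05 ± 0.50 (SE, limma adjusted p = 1.79e-09). The muscles did not overlap, and the spread within the diaphragm was wide, with the highest diaphragm library still below every gastrocnemius library. Myh1, the type IIX myosin, differed less, from 20431 to 31509 CPM (median 26537) in the diaphragm and 38471 to 50817 CPM (median 45372) in the gastrocnemius (-0.76 ± 0.07 SE, limma adjusted p = 9.2e-10). Myh2, the type IIA myosin, was the exception to the list and was higher in every diaphragm library, from 10729 to 13757 CPM (median 12780.3) in the diaphragm and 5852 to 9110.2 CPM (median 6226) in the gastrocnemius (0.89 ± 0.07 SE, limma adjusted p = 2.05e-11). With all 4 muscles in one fit, where the spread of the soleus libraries counts too, the Myh2 difference was 0.87 and was not called (adjusted p = 0.249). These myosins are close paralogs in a gene cluster, so reads shared between them may have been split by the authors' counting.

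The 250 bases before the RefSeq start of each of these 3 genes are shown because neighbouring genes of the same cluster differ so much between the muscles. They lie on the plus strand of chromosome 10 of build GRCr8, where 66.4 kb separate the starts of Myh2 and Myh4. The counts were made on an older build, so the coordinates belong to RefSeq alone: chr10:52355489-52355738 for Myh2, chr10:52384662-52384911 for Myh1 and chr10:52421898-52422147 for Myh4. Capitals mark each match on either strand to TATAAA, a core promoter motif, and to CANNTG, the E-box that myogenic factors such as MyoD recognise; the motifs share no base here.
Myh2: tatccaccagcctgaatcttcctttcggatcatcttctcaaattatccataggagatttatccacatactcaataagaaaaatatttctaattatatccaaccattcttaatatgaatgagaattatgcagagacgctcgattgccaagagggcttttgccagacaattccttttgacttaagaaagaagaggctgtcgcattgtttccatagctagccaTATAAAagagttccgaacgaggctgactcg
Myh1: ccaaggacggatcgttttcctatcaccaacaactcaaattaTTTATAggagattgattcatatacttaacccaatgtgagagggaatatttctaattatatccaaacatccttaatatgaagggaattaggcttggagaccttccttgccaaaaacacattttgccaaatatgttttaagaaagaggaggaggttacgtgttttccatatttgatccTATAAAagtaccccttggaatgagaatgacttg
Myh4: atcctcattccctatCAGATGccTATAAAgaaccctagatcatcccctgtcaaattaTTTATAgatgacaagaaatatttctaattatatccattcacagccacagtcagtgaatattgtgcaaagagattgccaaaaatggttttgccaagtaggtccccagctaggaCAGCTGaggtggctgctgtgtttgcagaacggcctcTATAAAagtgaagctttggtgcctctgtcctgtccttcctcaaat
Each window held TATAAA 30 to 45 bases before the start, Myh1 held a second match and Myh4 3 in all. The E-box was found in the Myh4 window alone, at 2 positions, 81 and 235 bases before the start. An E-box was present in 65.5% and TATAAA in 12.9% of the 33469 such windows that RefSeq gave. A match describes the letters of the window and not a site in use.

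**Figure D1:**
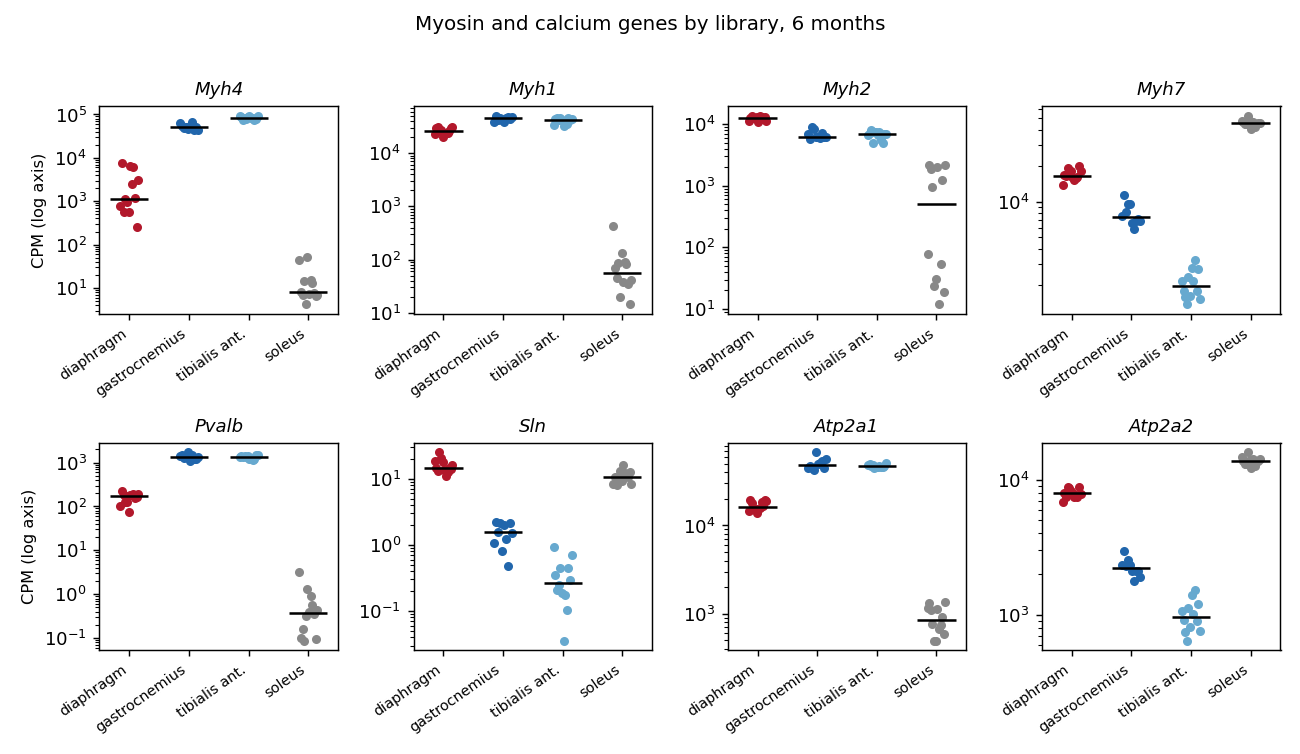
CPM of 8 fibre type genes on log axes in the 12 diaphragm, 10 gastrocnemius, 12 tibialis anterior and 12 soleus libraries of 6 months, with 1 point per library and a bar at the median. Myh4 ran from 249 to 7484 CPM in the diaphragm with every gastrocnemius library above it, whereas Myh2, Sln and Atp2a2 lay higher in every diaphragm library than in any gastrocnemius library.

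The thin filament and regulatory genes of fast fibres followed. Tpm1, the alpha-tropomyosin gene, had the largest difference after Myh4, from 1366 to 2135 CPM (median 1646) in the diaphragm and 9840.4 to 13056 CPM (median 10561) in the gastrocnemius (-2.66 ± 0.07 SE, limma adjusted p = 2.38e-20). The fast troponin genes Tnnc2 (-2.09), Tnni2 (-1.98) and Tnnt3 (-1.82) and the fast regulatory light chain gene Mylpf (-1.80) lay within a narrow band of differences. Actn3, which encodes the alpha-actinin of fast fibres, ran from 1615 to 4046 CPM (median 2799.7) in the diaphragm and 9233 to 16305 CPM (median 11182) in the gastrocnemius (-2.09 ± 0.14 SE, limma adjusted p = 8.63e-13). In each of these genes the lowest gastrocnemius library lay above the highest diaphragm library.

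Slow fibre genes were higher in the diaphragm in part. Of 11 tested 5 were higher, 1 was lower and 5 were not called, with a median of 0.38. Myh7, the slow myosin heavy chain gene, ran from 13702 to 19861 CPM (median 16463) in the diaphragm and 5921 to 11256 CPM (median 7357) in the gastrocnemius (1.12 ± 0.09 SE, limma adjusted p = 5.14e-11), and the lowest diaphragm library was above the highest gastrocnemius library. Tpm3, the slow tropomyosin gene, ran from 1254 to 1823 CPM (median 1541) in the diaphragm and 418 to 718 CPM (median 515) in the gastrocnemius (1.55 ± 0.09 SE, limma adjusted p = 4.58e-14), and Myh7b (1.29), Myoz2 (0.72) and the slow troponin T gene Tnnt1 (0.64) were also higher. The slow troponin C gene Tnnc1 (-0.30, limma adjusted p = 0.0247) and the light chain gene Myl2 (-0.26, limma adjusted p = 0.0199) were not past 1.5-fold. Myl6b, a light chain gene also found in non-muscle cells, went against the list, from 0.734 to 1.65 CPM (median 1.09) in the diaphragm and 2.39 to 6.42 CPM (median 4.25) in the gastrocnemius (-2.07 ± 0.19 SE, limma adjusted p = 7.5e-10).

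Against the tibialis anterior, which shares its diaphragm libraries with the comparison above, the fast list gave the same counts and the slow list gave more calls. There 3873 of 11326 genes (34.2%) were called, 22.4% higher and 11.8% lower, and 42.1% did not overlap. Total-count scaling moved the higher share of these calls from 65.5% to 90.6%. Of the 13 fast genes 12 were lower and 1 higher (median -1.63), and of the 11 slow genes 9 were higher and 2 lower (median 2.56). Myh7 differed by 3.09 from the tibialis anterior, where it ran from 1378 to 3231 CPM (median 1978), and Tnnc1 by 2.56. The soleus held 40152 to 52343 CPM (median 45288) of Myh7 and 4.21 to 52.3 CPM (median 7.96) of Myh4, so the diaphragm libraries lay between those of the soleus and of both fast limb muscles for either gene.

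Of 19 genes of calcium release and uptake 5 were higher in the diaphragm and 10 lower. For the calcium pump and the calcium store, the fast form and the slow or cardiac form moved in opposite directions. Atp2a1, the calcium pump of the sarcoplasmic reticulum in fast fibres, ran from 13767 to 19489 CPM (median 16214) in the diaphragm and 42426 to 67609.5 CPM (median 48086) in the gastrocnemius (-1.58 ± 0.08 SE, limma adjusted p = 4.78e-15). Atp2a2, the pump of slow fibres and heart, ran the other way, from 6846 to 8827 CPM (median 7904) in the diaphragm and 1783 to 2937 CPM (median 2215) in the gastrocnemius (1.84 ± 0.07 SE, limma adjusted p = 1.51e-17), and neither gene overlapped between the muscles. The calcium stores of the reticulum did likewise, with Casq1, the fast calsequestrin gene, at -0.89 and Casq2, the cardiac and slow calsequestrin gene, at 2.56.

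Of the small peptide inhibitors of these pumps, sarcolipin and phospholamban were higher and myoregulin (Mrln, -1.19) was lower. Sln, which encodes sarcolipin, ran from 11.04 to 25.2 CPM (median 14.5) in the diaphragm and 0.474 to 2.19 CPM (median 1.54) in the gastrocnemius (3.41 ± 0.23 SE, limma adjusted p = 2.08e-12), and Pln, which encodes phospholamban, from 24.1 to 36.4 CPM (median 30.9) in the diaphragm and 3.44 to 7.47 CPM (median 6.16) in the gastrocnemius (2.44 ± 0.11 SE, limma adjusted p = 3.53e-16). The soleus held 8.02 to 16.1 CPM (median 10.6) of Sln, a range that overlaps the diaphragm. Pvalb, the calcium buffer parvalbumin of fast fibres, ran from 74.9 to 229.8 CPM (median 173) in the diaphragm and 1107 to 1728 CPM (median 1364) in the gastrocnemius (-3.14 ± 0.15 SE, limma adjusted p = 1.51e-15), and all diaphragm libraries were lower. S100a1, a calcium sensor gene, was lower too (-3.32), from low levels of 0.0300 to 0.213 CPM (median 0.167) in the diaphragm and 0.880 to 1.70 CPM (median 1.30) in the gastrocnemius. Trdn, the triadin gene of the calcium release complex, ran from 1629 to 2174 CPM (median 1935) in the diaphragm and 347 to 2299.6 CPM (median 1059) in the gastrocnemius, and the muscles overlapped; its difference was called (0.93 ± 0.25 SE, limma adjusted p = 0.0015), but against the tibialis anterior it lay at -0.70.

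Most genes of glycolysis were lower in the diaphragm. Of 20 tested 15 were lower, 1 was higher and 4 were not called (median -1.50), and the tibialis anterior comparison gave 15 lower and 2 higher (median -1.33). Tpi1, triosephosphate isomerase, ran from 359.9 to 534 CPM (median 451) in the diaphragm and 1932 to 2471 CPM (median 2167) in the gastrocnemius (-2.29 ± 0.07 SE, limma adjusted p = 3.28e-19). Pkm, pyruvate kinase, ran from 722 to 1019 CPM (median 856) in the diaphragm and 3209 to 4977 CPM (median 3445) in the gastrocnemius (-2.10 ± 0.07 SE, limma adjusted p = 4.27e-18), and Pfkm, the phosphofructokinase of muscle and the pathway's control point, from 1008 to 1317 CPM (median 1148) in the diaphragm and 2858 to 3984 CPM (median 3083) in the gastrocnemius (-1.47 ± 0.06 SE, limma adjusted p = 1.14e-16). These 3 genes did not overlap between the muscles. Pfkfb3, whose product activates phosphofructokinase, had the largest difference of the list (-2.50). The hexokinase genes Hk1 (-0.19) and Hk2 (-0.13) were not called.

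The subunits of lactate dehydrogenase went opposite ways. Ldha, the subunit that favours lactate production, ran from 529 to 712 CPM (median 645) in the diaphragm and 1999 to 2916 CPM (median 2201) in the gastrocnemius (-1.84 ± 0.07 SE, limma adjusted p = 1.04e-17). Ldhb, the subunit that favours lactate use, was the glycolysis gene that went up, from 307 to 417 CPM (median 328) in the diaphragm and 103 to 212 CPM (median 155) in the gastrocnemius (1.15 ± 0.11 SE, limma adjusted p = 7.56e-10). The lactate carriers moved in the same opposed way. Slc16a3, the exporter MCT4 of glycolytic fibres, ran from 21.6 to 44.7 CPM (median 29.1) in the diaphragm and 264 to 407 CPM (median 313) in the gastrocnemius (-3.45 ± 0.11 SE, limma adjusted p = 1.04e-18) and Slc16a1, the importer MCT1, from 218 to 282 CPM (median 242) in the diaphragm and 113 to 151 CPM (median 135) in the gastrocnemius (0.86 ± 0.05 SE, limma adjusted p = 3.46e-13), with no overlap for either.

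Of 16 glycogen genes 8 were lower and 2 higher (median -0.44, or -0.01 with total-count scaling). Pygm, muscle glycogen phosphorylase, ran from 6580.4 to 9117 CPM (median 7463) in the diaphragm and 16952 to 25742 CPM (median 19943) in the gastrocnemius (-1.41 ± 0.07 SE, limma adjusted p = 6.26e-15). Phkg1 (-1.94), Phkb (-1.45) and Phka1 (-1.25), subunits of the phosphorylase kinase that switches it on, were lower. Gys1, glycogen synthase, was not called (-0.23), while the branching enzyme gene Gbe1 (0.92) and Ppp1r3b (1.54), a glycogen-targeting subunit of protein phosphatase 1, were higher.

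Several genes of fatty acid uptake were higher, and which cells of the muscle held them was not tested. Of 29 fatty acid genes 9 were higher and 3 lower (median 0.33), and of the same 29 against the tibialis anterior 13 were higher and 2 lower (median 0.53). The first count depends on the scaling, with 7 higher under DESeq2 size factors and 19 under total-count scaling. Lpl, lipoprotein lipase, which frees fatty acids at the vessel wall, ran from 1421 to 1923 CPM (median 1657) in the diaphragm and 239 to 366 CPM (median 311) in the gastrocnemius (2.40 ± 0.07 SE, limma adjusted p = 1.09e-19). Cd36, the fatty acid transporter, ran from 506 to 1124 CPM (median 986) in the diaphragm and 254 to 426 CPM (median 359.7) in the gastrocnemius (1.46 ± 0.11 SE, limma adjusted p = 2.61e-11), and neither gene overlapped. Plin5 (1.20), of the lipid droplet coat, Slc27a1 (1.01), another transporter, and the dehydrogenase gene Acadl (0.88) were higher. Cpt1b, the entry step of fatty acids into mitochondria, was not past 1.5-fold (0.24, limma adjusted p = 0.000561) and so was not called. The exceptions were Acsl6, a long-chain acyl-CoA synthetase gene (-1.77), Ucp3, a mitochondrial carrier gene (-1.37), and Etfb, of the electron transfer flavoprotein (-0.73, but 0.07 against the tibialis anterior).

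The ketone body enzyme genes Bdh1 and Oxct1 were higher. They belong to a list of ketone body, lactate and oxygen genes that also holds the lactate carriers above. Of its 16 genes tested 4 were higher, 4 lower and 8 not called (median 0.07), against 20.8% higher and 17.0% lower over all genes. Bdh1, the dehydrogenase that starts the breakdown of the ketone body 3-hydroxybutyrate, ran from 27.4 to 37.4 CPM (median 33.6) in the diaphragm and 1.68 to 2.84 CPM (median 2.22) in the gastrocnemius (3.92 ± 0.10 SE, limma adjusted p = 4.5e-20). Every diaphragm library lay above every gastrocnemius library, and the tibialis anterior held 1.18 to 3.17 CPM (median 2.57). Oxct1, the next enzyme, ran from 1400.4 to 1705 CPM (median 1574) in the diaphragm and 349 to 735 CPM (median 595) in the gastrocnemius (1.44 ± 0.09 SE, limma adjusted p = 4.62e-13). Mb, the oxygen store myoglobin, ran from 5906 to 7545 CPM (median 6681) in the diaphragm and 5726 to 7549 CPM (median 6347) in the gastrocnemius and was not called (0.04 ± 0.05 SE, limma adjusted p = 0.513), with overlapping ranges.

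Genes of the respiratory chain were lower or not called. Of 74 tested 38 were lower than in the gastrocnemius and 0 higher in limma-voom (median -0.63), with 6 higher at an unadjusted p under 0.05 without a fold threshold and 0 called higher in edgeR and in DESeq2. In the comparison with the tibialis anterior 3 were lower (median -0.14). With total-count scaling 19 were lower and 6 higher (median -0.20). The largest differences were those of the complex I gene Ndufs6 (-2.96, and -0.46 against the tibialis anterior), of Atp5i (-2.65 and -0.73) and of Ndufb7 (-2.46 and -0.93). Citric acid cycle genes were higher in 3 and lower in 3 of 25 cases, and the sign of their median changes with total-count scaling (-0.10 and 0.32).

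Cytosolic ribosomal protein genes, a list added after values were seen, had a similar pattern. Of 77 tested 45 were lower in the diaphragm and 0 higher (median -0.72; 0 higher also in edgeR and DESeq2, 4 at an unadjusted p under 0.05), against 11 lower and 1 higher in the tibialis anterior comparison (median -0.20), and with total-count scaling 30 were lower and 3 higher. Rpl22, with the largest difference, ran from 1.98 to 3.42 CPM (median 2.86) in the diaphragm and 14.7 to 40.6 CPM (median 27.9) in the gastrocnemius (-3.37 ± 0.18 SE, limma adjusted p = 2.41e-14), with 5.70 to 11.5 CPM (median 7.59) in the tibialis anterior. Some short non-coding RNAs, picked after their values were seen, were also lower in the diaphragm than in the gastrocnemius. The row LOC102723236, a 7SL RNA of the signal recognition particle, ran from 1251 to 1794 CPM (median 1550.2) in the diaphragm and 7389.6 to 20982 CPM (median 11150.1) in the gastrocnemius, against 1703 to 3085 CPM (median 2335) in the tibialis anterior, and Rmrp, the RNA of RNase MRP, from 77.9 to 173 CPM (median 104) in the diaphragm and 758 to 1402 CPM (median 937) in the gastrocnemius. Rn28s, a row for 28S ribosomal RNA, was at 0 in every diaphragm and tibialis anterior library and ran from 177 to 52564 CPM (median 14837) in the gastrocnemius. The part of these RNAs, or of the running-number series, in the 2 lists was not tested, and the series and the muscle cannot be told apart.

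**Figure D2:**
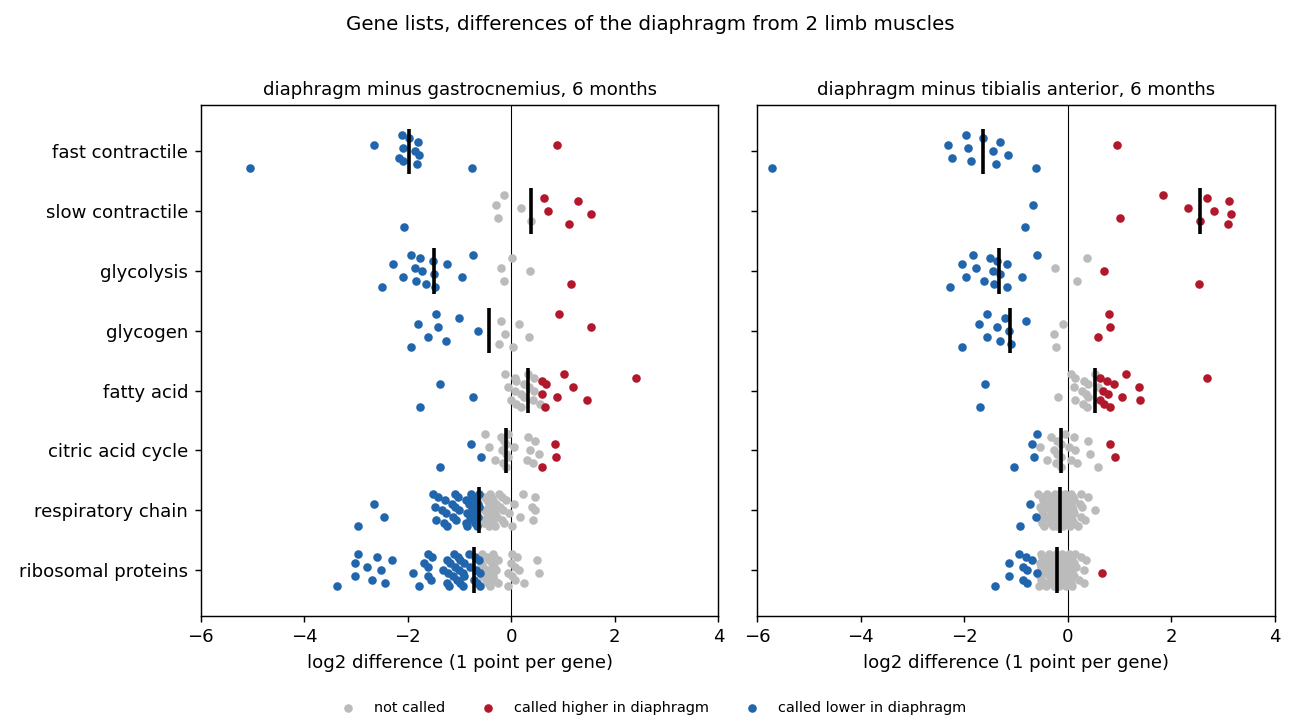
Log2 differences at 6 months between the diaphragm and the gastrocnemius (left) or the tibialis anterior (right), with 1 point per gene tested, coloured by call, and a black bar at the median of each list. Fast contractile and glycolysis genes lie to the left in both panels, whereas respiratory chain genes (medians -0.63 and -0.14) and ribosomal protein genes (-0.72 and -0.20) lie to the left mainly against the gastrocnemius.

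Of 27 regulators of muscle formation, fibre type and metabolism 8 were higher and 9 lower in the diaphragm. The higher ones include Pax3, Pax7 and Myf5, which are described with the muscle stem cells below. Prox1, a homeobox factor needed for slow fibre genes, ran from 60.1 to 75.02 CPM (median 64.9) in the diaphragm and 13.8 to 19.7 CPM (median 15.8) in the gastrocnemius (2.01 ± 0.06 SE, limma adjusted p = 1.03e-18). Sox6, a repressor of slow genes, ran from 39.4 to 55.9 CPM (median 48.9) in the diaphragm and 97.98 to 112 CPM (median 107) in the gastrocnemius (-1.12 ± 0.05 SE, limma adjusted p = 3.03e-16). Maf, a large Maf factor of type IIB fibres, was lower too (-1.50). These 3 genes did not overlap between the muscles, and the part of fibres and of other cells in their levels was not tested. Six2, a homeobox factor gene, had the largest difference of this list, from 0.133 to 1.34 CPM (median 0.356) in the diaphragm and 12.6 to 20.4 CPM (median 15.9) in the gastrocnemius (-5.26 ± 0.24 SE, limma adjusted p = 1.01e-15).

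Of the metabolic regulators, the orphan receptor genes Esrrb (1.98) and Esrrg (1.06) and the coactivator gene Ppargc1a (0.75) were higher, and Esrra was lower (-0.88, but -0.30 against the tibialis anterior). The myogenic factor genes Myod1 (-0.64) and Myog (-0.62) were called lower. Neither was past 1.5-fold in edgeR (-0.58 and -0.57), nor was Myod1 without gastrocnemius replicate 4 (-0.58). Both kept the call without diaphragm replicate 0 (-0.76 and -0.74) and without both libraries (-0.71 and -0.74).

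Several genes of muscle stem cells were higher. Of 10 satellite cell genes 5 were higher and 1, Spry1 (-0.67), was lower, and the sum of the list ran from 184 to 313 CPM (median 212) in the diaphragm and 135 to 168 CPM (median 145) in the gastrocnemius. Pax7, which marks satellite cells, ran from 4.56 to 7.005 CPM (median 5.45) in the diaphragm and 2.51 to 3.79 CPM (median 3.11) in the gastrocnemius (0.78 ± 0.09 SE, limma adjusted p = 1.84e-08), Myf5, a marker of their commitment to muscle, differed by 1.77, and Pax3, the relative of Pax7 that is used in migrating muscle precursors, ran from 4.08 to 7.52 CPM (median 6.39) in the diaphragm and 0.0592 to 0.729 CPM (median 0.577) in the gastrocnemius (3.80 ± 0.28 SE, limma adjusted p = 7.89e-12). Pax3 had 2638 counts over the diaphragm libraries and 7 over those of the tibialis anterior, a ratio of 350.1 (95% counting interval 170 to 872). The intervals of such ratios cover counting error only.

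Hox genes of the hind limb were near 0 in the diaphragm. Of 25 in the files 17 were tested, 5 of them higher in the diaphragm and 11 lower, with no overlap for 13. Members near 0 in one muscle were tested because of the other. Hoxc10, a gene of the hind limb level, had 11 counts over all 12 diaphragm libraries and 25792 over the 10 gastrocnemius libraries, a ratio of 2957 in favour of the gastrocnemius (95% counting interval 1652 to 5925). Hoxc11 was at 0 in the diaphragm and had 9033 counts in the gastrocnemius, at least 3798-fold lower in the diaphragm against a floor of 3 counts over the group. Hoxa11, also at 0 in the diaphragm, had 1449 counts in the gastrocnemius and was at least 609-fold lower. The tibialis anterior, a limb muscle as well, held 65.96 to 78.01 CPM (median 70.8) of Hoxc10, and the gastrocnemius 65.5 to 88.5 CPM (median 74.1), so the limb muscles overlapped.

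Several genes with lower numbers, which are used nearer the head, were higher in the diaphragm. Hoxb4 ran from 12.01 to 14.7 CPM (median 13.6) in the diaphragm and 0.545 to 1.30 CPM (median 0.952) in the gastrocnemius (3.92 ± 0.12 SE, limma adjusted p = 1.04e-18), with all diaphragm libraries above all others. Hoxa2 (2.76), Hoxb3 (2.33), Hoxb5 (1.001) and Hoxb7 (0.71, but 0.55 and not called without gastrocnemius replicate 4) were also higher. The Hoxb7 call was also lost with quality weights (0.56), with all 4 muscles in one fit (0.69) and with Bonferroni adjustment. In contrast, Hoxc4 (-1.002), Hoxd4 (-2.03) and Hoxc5 (-0.64) were lower despite their low numbers. Against the tibialis anterior Hoxc4 (-0.45), Hoxd4 (-0.31) and Hoxc5 (0.05) were not called.

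For Hoxd9 and Hoxd10 the picture depended on the limb muscle. Hoxd9 ran from 0.366 to 1.77 CPM (median 1.05) in the diaphragm and 25.1 to 38.9 CPM (median 30.3) in the gastrocnemius (-4.87 ± 0.16 SE, limma adjusted p = 1.41e-18), but in the tibialis anterior it held 0.763 to 1.91 CPM (median 1.19), a difference of -0.23 that was not called. Hoxd10 ran from 0 to 0.398 CPM (median 0.108) in the diaphragm and 4.02 to 7.70 CPM (median 5.75) in the gastrocnemius (-6.08 ± 0.45 SE, limma adjusted p = 8.2e-12) and held 0 to 0.628 CPM (median 0.127) in the tibialis anterior. For both genes the diaphragm and tibialis anterior libraries overlapped.

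Of 30 other factors that mark body position in the files 23 were tested, 11 of them higher and 4 lower. As with the Hox genes, members near 0 in the gastrocnemius entered the test through the diaphragm. The higher ones include Wt1, which is also counted with the mesothelium below. Tbx3, a T-box factor gene, ran from 52.2 to 75.6 CPM (median 68.7) in the diaphragm and 2.10 to 4.34 CPM (median 3.51) in the gastrocnemius (4.35 ± 0.11 SE, limma adjusted p = 2.38e-20), and Meis2, which encodes a Hox cofactor, from 41.6 to 53.4 CPM (median 45.8) in the diaphragm and 2.01 to 2.87 CPM (median 2.49) in the gastrocnemius (4.27 ± 0.08 SE, limma adjusted p = 2.05e-22). Shox2 ran from 8.04 to 15.3 CPM (median 9.82) in the diaphragm and 0.601 to 1.88 CPM (median 1.12) in the gastrocnemius (3.20 ± 0.17 SE, limma adjusted p = 2.78e-14). These 3 genes had no overlap between the muscles. Gata4, which is used in the connective tissue fold that shapes the diaphragm, ran from 4.17 to 8.44 CPM (median 6.16) in the diaphragm and 0.0647 to 0.313 CPM (median 0.119) in the gastrocnemius (5.36 ± 0.35 SE, limma adjusted p = 1e-12), and Gata6 differed by 2.33. The hind limb genes Pitx1 (-4.06) and Tbx4 (-2.51) and the limb migration gene Lbx1 (-1.86) were lower, the first 2 from levels of 0.894 and 0.737 CPM (medians) in the gastrocnemius. Tbx1 was higher than in the gastrocnemius (1.43) and lower than in the tibialis anterior (-1.31).

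Mesothelial genes were found in every diaphragm library and were near 0 in the gastrocnemius. Of 8 mesothelium genes in the files 6 had enough counts to be tested, and those were higher. With so few counts in the gastrocnemius, members entered the test through the diaphragm, so this count had to come out one way. The summed level of all 8 ran from 12.4 to 114 CPM (median 60.3) in the diaphragm and 0.302 to 1.16 CPM (median 0.529) in the gastrocnemius. Msln, mesothelin, ran from 5.18 to 63.4 CPM (median 33.2) in the diaphragm and 0 to 0.444 CPM (median 0.171) in the gastrocnemius (7.16 ± 1.52 SE, limma adjusted p = 0.000166). Wt1, a factor of mesothelium, ran from 4.52 to 13.9 CPM (median 8.26) with 3493 counts in the diaphragm and none in the gastrocnemius, at least 923-fold higher against 3 counts over the group. Bnc1, which encodes a zinc finger protein of epithelia, had 3780 counts against 2, a ratio of 1499 (95% counting interval 415 to 12379), and Upk1b, a uroplakin, 1692 against 18 (ratio 74.5, interval 47.0 to 126). The levels varied widely between diaphragm libraries, and 3 of them, replicates 4, 8 and 10, held the least Msln.

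Complement and fat genes were among the abundant genes with the largest differences. C3, the central complement component, ran from 8.39 to 166 CPM (median 75.5) in the diaphragm and 0.764 to 1.76 CPM (median 1.08) in the gastrocnemius (5.55 ± 1.07 SE, limma adjusted p = 5.2e-05), and C4a, another component, from 116 to 1025 CPM (median 579) in the diaphragm and 11.9 to 29.8 CPM (median 16.98) in the gastrocnemius (4.54 ± 0.33 SE, limma adjusted p = 9.29e-12), although reads of near-identical complement C4 genes may be shared. C3 was least abundant in the same 3 diaphragm libraries as Msln. Scd1, a desaturase of fat synthesis, ran from 14.7 to 893 CPM (median 83.4) in the diaphragm and 2.06 to 11.9 CPM (median 3.32) in the gastrocnemius (4.61 ± 0.73 SE, limma adjusted p = 3.87e-06) and Pck1, an enzyme of glycerol and glucose synthesis, from 3.76 to 128 CPM (median 13.9) in the diaphragm and 0.343 to 3.40 CPM (median 1.24) in the gastrocnemius (3.64 ± 0.93 SE, limma adjusted p = 0.00104). Aox3, an aldehyde oxidase gene, ran from 23.8 to 64.5 CPM (median 36.8) in the diaphragm and 1.94 to 5.37 CPM (median 2.98) in the gastrocnemius (3.65 ± 0.23 SE, limma adjusted p = 3.57e-13). The part of mesothelium and fat in these results was not tested.

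**Figure D3:**
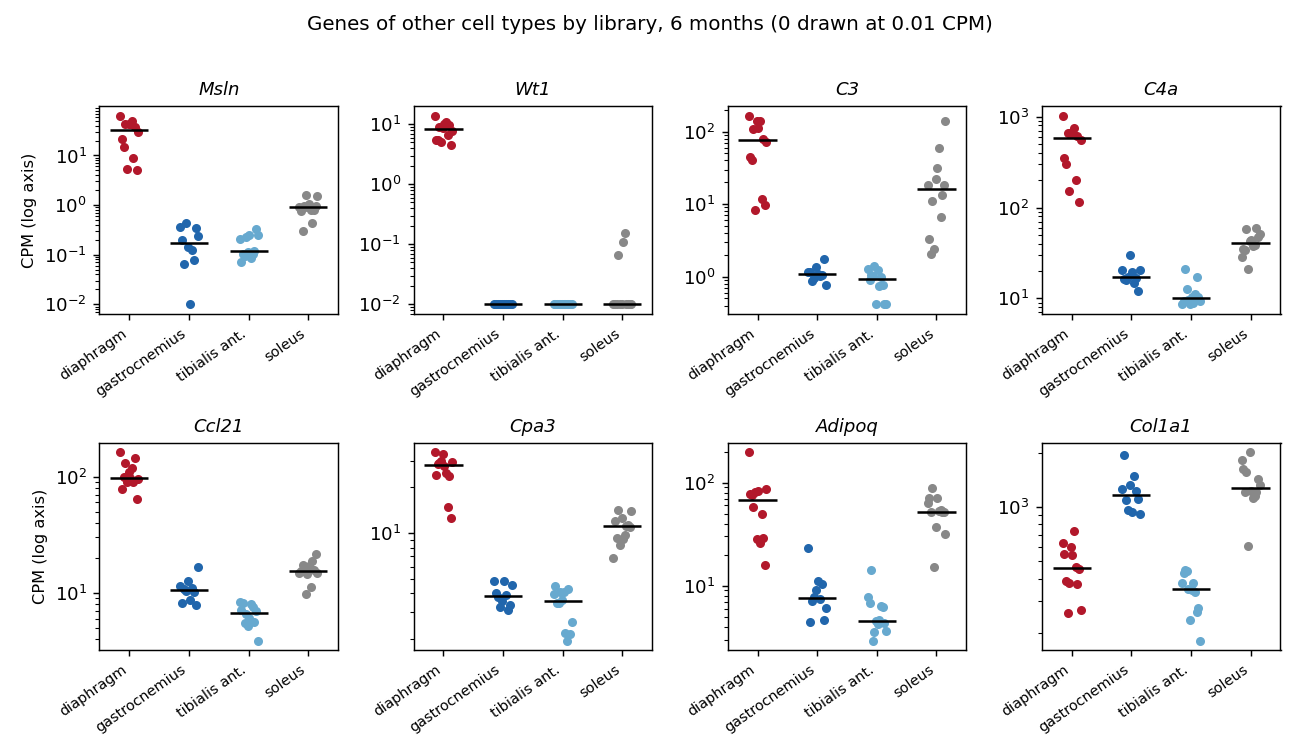
CPM of 8 genes on log axes in the 4 muscles at 6 months, with 1 point per library, a bar at the median and libraries without counts drawn at 0.01 CPM. Msln, Wt1, C3, C4a, Ccl21 and Cpa3 lie higher in all 12 diaphragm libraries than in any gastrocnemius library, Adipoq overlaps, and Col1a1 is lower in the diaphragm than in the gastrocnemius but not called against the tibialis anterior.

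Fat cell genes were higher with large spread. Of 9 tested 6 were higher and 1, Car3, which fibres also express, was lower. Adipoq, adiponectin, ran from 15.98 to 197 CPM (median 67.5) in the diaphragm and 4.40 to 23.4 CPM (median 7.67) in the gastrocnemius (2.76 ± 0.41 SE, limma adjusted p = 1.3e-06), with overlap between the muscles. Diaphragm replicate 0 stood apart in this group, with 893 CPM of Scd1 against 14.7 to 236 in the other 11 libraries. Ucp1, the heat-producing carrier of brown fat, had 6652 counts in the diaphragm, nearly all in replicate 0 (126 CPM there and at most 0.261 in the others), and none in the gastrocnemius. Ankrd1, a stress gene of muscle fibres, was at 192 CPM in the same library and from 3.40 to 8.48 CPM in the other diaphragm libraries; its difference of -1.69 ± 0.47 (SE, limma adjusted p = 0.00252) became -2.24 without that library and was not called in edgeR (-0.24).

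The lymphatic and mast cell genes tested were higher. The 5 lymphatic genes had no overlap between the muscles, and their sum ran from 169 to 416 CPM (median 257) in the diaphragm and 36.3 to 53.3 CPM (median 42.9) in the gastrocnemius. Ccl21, the chemokine of lymphatic vessels, ran from 64.5 to 162 CPM (median 97.8) in the diaphragm and 7.85 to 16.9 CPM (median 10.6) in the gastrocnemius (3.30 ± 0.16 SE, limma adjusted p = 2.5e-15), and Reln, reelin, which lymphatic endothelium secretes, from 54.02 to 146 CPM (median 91.1) in the diaphragm and 6.18 to 10.2 CPM (median 7.40) in the gastrocnemius (3.53 ± 0.16 SE, limma adjusted p = 6e-16). The sum of all 10 mast cell genes in the files, of which 8 were tested, ran from 33.7 to 81.02 CPM (median 60.8) in the diaphragm and 12.4 to 18.1 CPM (median 16.2) in the gastrocnemius. Cpa3, the carboxypeptidase of mast cells, ran from 12.6 to 34.1 CPM (median 28.1) in the diaphragm and 3.08 to 4.85 CPM (median 3.84) in the gastrocnemius (2.67 ± 0.20 SE, limma adjusted p = 1.45e-11), with no overlap.

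Vessel and blood genes were higher by less. Of 12 endothelial genes 7 were higher and none lower (median 0.63), and of 5 red cell genes all were higher, with a sum from 432 to 788 CPM (median 547) in the diaphragm and 220.4 to 373 CPM (median 283) in the gastrocnemius. Haemoglobin genes are near-identical copies and their split is uncertain. Of 11 macrophage genes 5 were higher than in the gastrocnemius and 11 than in the tibialis anterior, with none lower in either. Of 8 genes of MHC class II, which presents antigens on immune cells, 0 were called against the gastrocnemius in limma-voom, 0 in edgeR and 0 in DESeq2, with 1 at an unadjusted p under 0.05, and all 8 were higher than in the tibialis anterior. Of 10 T cell genes in the files 6 were tested and 4 were higher, and no B cell gene had enough counts to be tested. Of 14 liver genes in the files 5 had enough counts to be tested, and members such as Fgg entered the test through the diaphragm. Fgg, a fibrinogen chain, had 596 counts against 1 (ratio 473, 95% counting interval 84.5 to 18696). Of the untested members, Fga, another fibrinogen chain, had 11 counts against 7 (ratio 1.25, interval 0.441 to 3.79), and Apoh, an apolipoprotein, 12 against 8 (ratio 1.19, interval 0.447 to 3.35). Alb, albumin, ran from 1.17 to 47.8 CPM (median 4.03) in the diaphragm and 0 to 0.445 CPM (median 0.159) in the gastrocnemius (4.88 ± 1.24 SE, limma adjusted p = 0.000989), without overlap, and was highest in diaphragm replicate 0. It was not called with all 4 muscles in one fit (4.86). The sum of all 14 liver genes ran from 34.0 to 148 CPM (median 70.4) in the diaphragm and 22.7 to 38.0 CPM (median 26.2) in the gastrocnemius. The soleus held 37.0 to 1811 CPM (median 159), so these transcripts were not particular to the diaphragm. The part of neighbouring tissue in these values was not tested.

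Matrix genes differed in both directions. Of 26 collagen and matrix genes 8 were higher and 5 lower than in the gastrocnemius, whereas 16 were higher than in the tibialis anterior. Col1a1, the main fibrillar collagen, ran from 258 to 732 CPM (median 458) in the diaphragm and 913 to 1946 CPM (median 1165) in the gastrocnemius (-1.41 ± 0.17 SE, limma adjusted p = 3.7e-08), but in the tibialis anterior it held 181 to 449 CPM (median 348), a difference of 0.49 that was not called. Col14a1, which binds collagen fibrils, ran from 207 to 339 CPM (median 257) in the diaphragm and 59.3 to 87.8 CPM (median 75.2) in the gastrocnemius (1.80 ± 0.09 SE, limma adjusted p = 3.77e-15), and the proteoglycan genes Lum (1.74) and Bgn (1.56) were higher in both comparisons (2.02 and 2.06 against the tibialis anterior). Fmod, the proteoglycan of tendon, ran from 17.5 to 197 CPM (median 131) in the diaphragm and 283 to 395 CPM (median 325) in the gastrocnemius (-1.81 ± 0.31 SE, limma adjusted p = 1.29e-05) and lay at 0.91 against the tibialis anterior. Of 8 tendon genes 5 were lower than in the gastrocnemius, and 5 were higher than in the tibialis anterior. Their sum ran from 111 to 885 CPM (median 618) in the diaphragm and 913 to 1323 CPM (median 1062) in the gastrocnemius, and from 115 to 333 CPM (median 230.2) in the tibialis anterior. How much tendon was dissected with a muscle was not tested.

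Of 20 genes of the nerve contact and the fibre surface 5 were higher and 7 lower (median -0.27, or 0.16 with total-count scaling). Musk, the receptor kinase that gathers acetylcholine receptors, ran from 7.53 to 11.8 CPM (median 9.53) in the diaphragm and 2.94 to 4.44 CPM (median 3.78) in the gastrocnemius (1.34 ± 0.09 SE, limma adjusted p = 3.81e-12), Colq, the collagen tail of acetylcholinesterase, from 18.8 to 38.7 CPM (median 25.2) in the diaphragm and 4.24 to 8.76 CPM (median 6.61) in the gastrocnemius (2.02 ± 0.14 SE, limma adjusted p = 3.83e-12), and the receptor subunit genes Chrna1 (1.17) and Chrnd (0.82) were higher. Ache, acetylcholinesterase itself, ran from 26.01 to 38.2 CPM (median 34.3) in the diaphragm and 59.4 to 78.3 CPM (median 70.8) in the gastrocnemius (-1.05 ± 0.06 SE, limma adjusted p = 5.9e-14). Of the channels, Scn4a, the sodium channel gene of adult muscle (-0.82), and the chloride channel gene Clcn1 (-1.14) were lower.

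Growth and wasting genes were mixed, with 5 of 24 higher and 7 lower. Mstn, myostatin, which limits muscle growth, ran from 2.52 to 6.14 CPM (median 3.69) in the diaphragm and 7.86 to 22.4 CPM (median 10.2) in the gastrocnemius (-1.53 ± 0.17 SE, limma adjusted p = 1.97e-08), and Trim63, a ubiquitin ligase of muscle wasting, from 58.96 to 96.6 CPM (median 75.3) in the diaphragm and 175 to 205 CPM (median 186) in the gastrocnemius (-1.32 ± 0.07 SE, limma adjusted p = 6.57e-15), with no overlap for either. Igf1 (0.83) and Bmp4 (1.20) were higher. Fbxo32, the other well known ligase of wasting, was not called (-0.07). Of 11 developmental and cardiac contractile genes, Tnni3, cardiac troponin I, had 714 counts against 18 (ratio 31.5, 95% counting interval 19.8 to 53.4) and Tnnt2 was higher (1.65), while 7 were lower, among them Mybph (-4.38) and the stretch gene Ankrd2 (-3.41), which were also lower than in the tibialis anterior (-2.99 and -1.27).

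Among the remaining genes with the largest differences, Atp2b2, a calcium pump of the cell membrane, ran from 11.4 to 20.7 CPM (median 16.8) in the diaphragm and 0.444 to 1.17 CPM (median 0.753) in the gastrocnemius (4.46 ± 0.19 SE, limma adjusted p = 3.01e-16), Bdnf, a nerve growth factor that fibres and nerve-associated cells make, from 11.95 to 37.01 CPM (median 17.6) in the diaphragm and 0.355 to 2.23 CPM (median 1.18) in the gastrocnemius (4.23 ± 0.33 SE, limma adjusted p = 3.36e-11), and Cacna2d3, a calcium channel subunit, from 12.2 to 20.2 CPM (median 16.6) in the diaphragm and 0.911 to 2.01 CPM (median 1.33) in the gastrocnemius (3.57 ± 0.15 SE, limma adjusted p = 1.96e-16). The diaphragm libraries were above those of the gastrocnemius in all 3 genes. Lower in the diaphragm were Mettl21c, a methyltransferase of muscle (-4.26), Sim2, a transcription factor gene (-3.57), Espl1, the separase gene (-3.57), Ndufa10l1, a gene named for its likeness to a complex I subunit gene (-3.88), and Adgrb2, an adhesion receptor gene, which ran from 1.43 to 14.4 CPM (median 3.81) in the diaphragm and 45.6 to 128 CPM (median 67.1) in the gastrocnemius (-4.33 ± 0.29 SE, limma adjusted p = 1.26e-12). Mettl21c held 136 to 283 CPM (median 216) in the soleus and Sim2 135 to 160.5 CPM (median 140.03), above all diaphragm libraries.

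Clock and handling genes were compared because the tissues of one age were taken on a single day but not at a single time. Of 15 clock genes 5 were lower and 1 higher (median -0.17, or 0.26 with total-count scaling), among them Dbp, an output of the clock, from 9.91 to 39.5 CPM (median 18.8) in the diaphragm and 17.1 to 106 CPM (median 42.5) in the gastrocnemius (-1.32 ± 0.27 SE, limma adjusted p = 0.000105), with overlap, and Arntl, its positive arm, was not called (0.45). Of 18 genes listed for handling, early response genes such as Fos and heat shock genes such as Hspa1a, 2 were higher and 4 lower. Without diaphragm replicate 0, whose sum of this list was 3700.4 CPM against a diaphragm median of 873, 1 was higher and 8 lower. Without gastrocnemius replicate 4 the higher count was also 1. At 9 months 1 handling gene was higher and 13 lower, whereas of the 15 clock genes 1 was higher and 2 lower.

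At 9 months the comparison was made in other libraries, collected on another day. Of 11592 genes 4237 were called (36.6%), 20.5% higher and 16.1% lower, and 35.3% did not overlap. Total-count scaling moved the higher share of the calls from 56.0% to 84.4%. Of 4310 genes called at 6 months and tested at 9 months 3769 were called the same way (87.4%), 540 were not called, and 1 was called the other way. Of the 4148 genes called at 9 months and tested at 6 months, 90.9% had been called the same way. Ribosomal RNA genes took 0.212 to 0.374% of the diaphragm counts and 0.457 to 9.68% of the gastrocnemius counts at 9 months. The gastrocnemius libraries of both ages share this feature, so the repeat cannot tell it apart from the muscle.

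At that age, of 13 fast contractile genes 12 were lower, of 20 glycolysis genes 15 lower and 1 higher, of 74 respiratory chain genes 40 lower, and of 17 Hox genes 10 lower and 5 higher. Fatty acid genes were higher in 5 of 29 cases, fewer than at 6 months. Myh4 differed by -3.97 ± 0.43 (SE, limma adjusted p = 6.41e-09) at 9 months, Hoxb4 by 4.11 ± 0.15 (SE, limma adjusted p = 5.86e-18) and Bdh1 by 4.11 ± 0.17 (SE, limma adjusted p = 3.97e-17). Myh2 was not called at that age (0.32), nor Casq1 (-0.57), nor Adgrb2 (-2.31, limma adjusted p = 0.0783). By a test of the change between the ages (an interaction term over both), 0% of 11896 genes (0 genes) were called in limma-voom, against 712 with an unadjusted p under 0.05, 1 in edgeR and 7 in DESeq2. A call in this test also needed a change of more than 1.5-fold, so a smaller change could not be called whatever its p. The differences of Myh2 and of Casq1 at the 2 ages lie closer together than that. For these genes, and for any fatty acid gene with a smaller change, the lack of a call cannot say whether the ages differ. The difference of Adgrb2 was not shown to differ between 6 and 9 months in limma-voom.

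**Figure D4:**
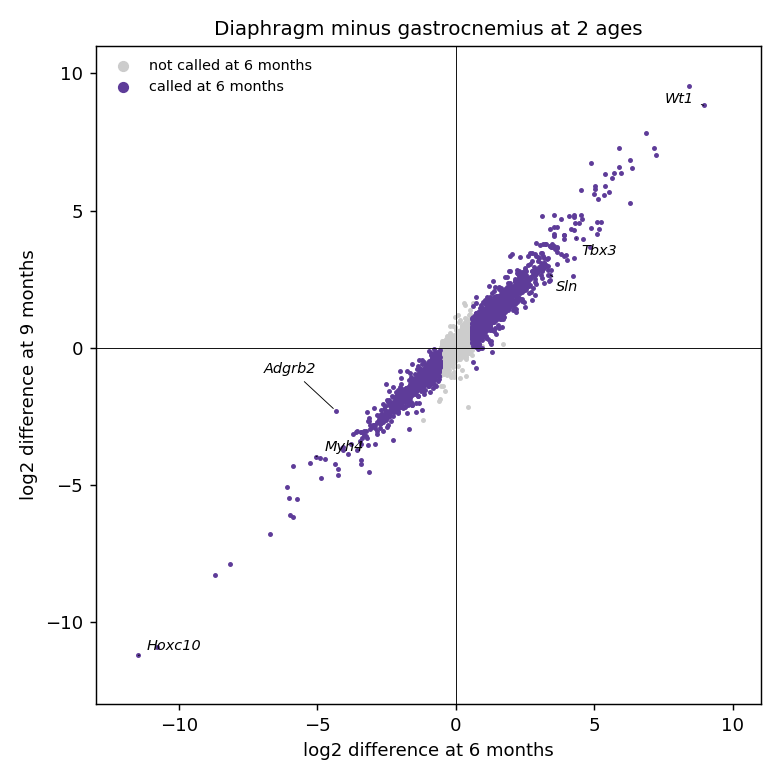
Log2 difference between diaphragm and gastrocnemius at 6 months (horizontal) and 9 months (vertical) for the 11434 genes tested at both ages, with genes called at 6 months in purple. Points of called genes run along the diagonal from Hoxc10 to Wt1, and Adgrb2 (-4.33 and -2.31) lies off it.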

How the data were processed

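Total RNA of rat muscle was sequenced in strand-specific libraries. The authors deposited raw counts per gene for each sample, made with ArrayStudio on an older rat build with their own RefSeq-based gene model; the versions are not given in the sources used here. Counts on several lines of 1 symbol (494 symbols) were summed, giving 17315 symbols. Groups followed the labels. Genes were kept by filterByExpr (minimum count 10, minimum total 15) and tested, 2 groups a fit, by limma-voom (limma 3.58.1) with TMM scaling (edgeR 4.0.16), two-sided, with Benjamini-Hochberg adjustment. DESeq2 1.42.0 and edgeR's quasi-likelihood test were alternatives, with other scaling, filters, thresholds, weights, blocks and left-out libraries. Levels are CPM scaled by TMM over the 69 libraries of 6 groups, and a prior count of 0.5 was used for logs. The limma-voom test was checked on simulated counts in which few genes changed, equally many up and down, with a common spread. Those counts lack the shift between scalings seen here, so the check cannot say which scaling holds. Members of the comparison and gene lists were chosen with earlier results of these data known. The genes named were the list members the text describes by role, plus the 12 genes with the largest called difference in each direction among those with a mean log2 CPM over 2. LOC102723236 and Rmrp were named after their values were seen. Some members are not reported here. Ribosomal RNA rows stayed in the counts, and leaving them out changed the calls at 6 months from 4336 to 4335. Intervals cover counting error only.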

Additional observations from a re-analysis of the deposited data

Results flagged for a closer look

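In each group of 4 to 10 libraries, the gap from the most extreme library to its nearest neighbour was set against the range of the group. With 146 sets of values examined and 8 standing out, against 1 in 20 by chance, these are values to look at and not findings. At 6 months gastrocnemius replicate 4 resembled the rest of its group least (median correlation 0.954) and held the least Ankrd1 (9.70 CPM). Gastrocnemius replicate 5 stood apart for Chrna1 (18.1 CPM), for Msln (0 CPM) and for Rn28s (177 CPM), and replicate 9 held the least Hoxb3 (0.0665 CPM). Bnc1 had counts in a single gastrocnemius library, replicate 2 (0.0635 CPM), and so had Fgg, in replicate 1 (0.0142 CPM). The groups of over 10 libraries, the diaphragm among them, were not examined in this way.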

How the results depend on the processing

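The number of genes called at 6 months stayed within 1.5 times the reported 4336 under every alternative but the 2-fold threshold, from 3343 with Bonferroni adjustment to 5745 with total-count scaling (5110 without a filter on low counts, 4299 in edgeR, 4307 in DESeq2). With the 2-fold threshold 1981 genes were called at 6 months, 1936 at 9 months and 1813 against the tibialis anterior. Leaving out diaphragm replicate 0, gastrocnemius replicate 4 or both, libraries chosen after seeing the data, gave 4255, 4236 and 4117 calls at 6 months.

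The change between the ages, a test added after seeing the data, had 0 calls, 1 with total-count scaling, in edgeR, with quality weights and with all 4 muscles, and 7 in DESeq2. The replicate block gave 7, against 1 for the same libraries without the block. Neither the labels nor the study say that a replicate number marks a shared animal. The deviations of same-numbered diaphragm and gastrocnemius libraries at 6 months had a median correlation of -0.009, with 1 of 10 over 0.1 and 1 of 10 best with its own number. At 9 months the median was 0.184, with 6 of 11 over 0.1 and 6 of 11 best with their own number. For the diaphragm and the tibialis anterior it was 0.286, with 10 of 12 over 0.1 and 9 of 12 best with their own number, a hint of shared numbers in the data alone. With the block 4301 genes were called at 6 months against 4375 without it on those libraries.

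Over all 431 gene values of the genes named, 6295 alternatives kept direction and side of the threshold, 142 lost and 26 gained a call, and 0 reversed. The 2-fold threshold, Bonferroni adjustment and total-count scaling took away most of the lost calls (61, 34 and 28); the cause was not tested. Depth limits genes near 0, for which only bounds or counting intervals are given.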
